A study of Mus musculus with 50 samples.

Results

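The Hox genes encode homeodomain transcription factors and lie side by side in 4 clusters, Hoxa on chromosome 6, Hoxb on chromosome 11, Hoxc on chromosome 15 and Hoxd on chromosome 2. The members described here were 38 Hox genes, 10 in Hoxa, 10 in Hoxb, 9 in Hoxc and 9 in Hoxd, and their accessible regions were the merged peaks of the count table within 2 kb of the span of a member gene. This rule, which used positions only, found 6 of the 144465 merged peaks, 3 in Hoxb, 2 in Hoxa, 1 in Hoxd and 0 in Hoxc.

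ATAC-seq, in which a transposase cuts and tags open chromatin, was run on NeuN+ (neuronal) nuclei of ventral hippocampus from C57BL/6JRj males. The offspring of dams from 1 breeder were reared in 5 rearing facilities (RF1 to RF5), which kept their own cages, handling, bedding, nesting material, diet and light schedule. There were 5 libraries for each RF at each of 2 time points (TPs), which makes 10 groups and 50 libraries. At TP1 the mice were 8 weeks old and still in their RF, and at TP2 they were 14 weeks old, untested, and had been moved to 1 common test laboratory. By the paper, mice of TP2 were littermates of those of TP1 from the same cages. The labels do not name the litter. All groups shared strain, sex, tissue, sort and freezing in hexane, and no group carried a transgene or a drug treatment. Libraries of a TP were amplified and sequenced in a batch of their own, so TP and this batch cannot be told apart and no effect of TP alone was tested.

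In the embryo the order of the Hox genes along a cluster follows the order in which they are used along the head-to-tail axis, and their combined activity sets the identity of hindbrain and spinal cord segments. The forebrain, which gives rise to the hippocampus, develops without Hox activity and is patterned by other homeobox genes such as Emx1. Inactive Hox clusters are a textbook target of the Polycomb complexes PRC2 and PRC1, which keep CpG-rich promoters silent, while Trithorax proteins oppose them. Retinoic acid activates genes at the 3′ end of the clusters, and the TALE proteins Meis and Pbx bind DNA together with Hox proteins.

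Counts in peaks summed to between 33663505 and 77396321 per library at TP1 (median 44453692) and to between 5111223 and 36401717 at TP2 (median 26030443), so values at TP2 rest on fewer counts. Of the 100 pairs of libraries within a group, 20 differed by no more than sampling noise (7 at TP1 and 13 at TP2), and such libraries may not count as separate samples. Values are therefore given library by library. At TP2, RF1 libraries 3 and 5 and RF2 library 5 stood nearest to libraries of another RF in earlier results of these data, so results at TP2 are also given without them. Because they were picked from these data for that nearness, leaving them out favours differences between RFs. Markers were read from promoter peaks, which are merged peaks within 2 kb of a TSS. Of 10 neuronal genes listed, 7 could be matched to a promoter and 7 of these had a promoter peak, with 157 to 242 counts per 1000000 counts in peaks (CPM) summed at TP1 and 160 to 218 CPM at TP2. A promoter peak was also found for 4 of 4 matched astrocyte genes and 2 of 3 microglia genes, against 1 of 5 genes of the oligodendrocyte lineage and 1 of 2 endothelial genes.

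The first question was whether Hox promoters were accessible in these neuronal nuclei. Promoter sequence was taken from RefSeq (GRCm38.p6), whose table lists 22 of the 38 members. The 4 sequences below are the 250 bases that precede the transcription start site (TSS) and are printed 5′ to 3′ with each CpG in capitals (the dinucleotide CG, which reads the same on both strands). They are shown because base composition alone did not set the listed Hox promoters apart. Hoxa13 and Hoxd13, which pattern the most posterior structures, stand at the 5′ end of their clusters, Hoxd1 stands at the opposite end, and Emx1 is a forebrain homeobox gene that was chosen after its values were seen. Hoxa13 lies at chr6:52260881-52261130 on the minus strand, Hoxd13 at chr2:74667975-74668224 on the plus strand, Hoxd1 at chr2:74762730-74762979 on the plus strand and Emx1 at chr6:85187681-85187930 on the plus strand.
Hoxa13: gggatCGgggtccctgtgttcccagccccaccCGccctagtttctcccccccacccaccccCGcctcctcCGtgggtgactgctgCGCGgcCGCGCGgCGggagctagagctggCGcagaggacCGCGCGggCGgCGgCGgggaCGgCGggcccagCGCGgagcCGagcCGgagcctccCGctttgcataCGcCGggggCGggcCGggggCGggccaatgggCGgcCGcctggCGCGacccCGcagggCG
Hoxd13: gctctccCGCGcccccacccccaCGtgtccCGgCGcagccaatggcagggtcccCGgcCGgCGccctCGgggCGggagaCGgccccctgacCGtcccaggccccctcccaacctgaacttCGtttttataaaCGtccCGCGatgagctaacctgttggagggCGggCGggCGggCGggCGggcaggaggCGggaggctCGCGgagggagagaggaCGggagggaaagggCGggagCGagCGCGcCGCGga
Hoxd1: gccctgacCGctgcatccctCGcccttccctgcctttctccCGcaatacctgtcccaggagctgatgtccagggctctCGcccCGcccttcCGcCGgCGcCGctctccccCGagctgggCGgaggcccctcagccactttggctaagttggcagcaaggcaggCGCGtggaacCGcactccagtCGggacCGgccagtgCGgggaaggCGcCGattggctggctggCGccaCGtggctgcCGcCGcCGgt
Emx1: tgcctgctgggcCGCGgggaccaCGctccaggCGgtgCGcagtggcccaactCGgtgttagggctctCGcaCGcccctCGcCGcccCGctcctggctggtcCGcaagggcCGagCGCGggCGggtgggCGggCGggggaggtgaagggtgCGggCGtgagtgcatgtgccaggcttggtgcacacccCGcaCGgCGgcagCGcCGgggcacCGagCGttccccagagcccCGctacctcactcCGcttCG

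Hoxd13 and Emx1 each held 37 CpGs in the 300 bases from 250 before to 50 after the TSS, with a GC content of 74.3% and 74.0%. The TSS of Emx1 lay in a merged peak of 1994 bp that had been found in 10 of 10 groups, and a peak was called there in 50 of 50 libraries. The TSS of Hoxd13 lay in no merged peak, and no library had a peak there. Hoxa13 held 45 CpGs at a GC content of 81.0%, and 1 library had a peak at its TSS. Hoxd1 held 29 CpGs at 69.7%, and 7 libraries had a peak at its TSS, the most of the 38 members.

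The TSS of a member was that of the promoter table where it lists the gene (22 members) and otherwise the 5′ end of the gene span. By this rule 0 of the 38 Hox TSSs lay in a merged peak, and 0 of the 22 listed ones, whereas 11100 of the 17492 protein-coding genes with a promoter entry (63.458%) had a TSS in one. Hoxb8 was the exception by the other definition. Its listed TSS lay in no peak, but the 5′ end of its span (chr11, position 96279401) lay in the merged peak described below as the Hoxb8 peak. A merged peak lay within 2 kb of the TSS for 4 of the 38 members (10.526%), Hoxa3, Hoxb5, Hoxb7 and Hoxd1, and for 2 of the 22 listed ones (9.091%), against 12087 of all genes (69.1%). Base composition of the listed Hox promoters was close to that of other promoters. Of Hoxb only Hoxb1, Hoxb4 and Hoxb8 were listed, and of Hoxc only Hoxc4. The median was 14.5 CpGs per Hox promoter, fewer than in each Hox promoter shown above, and 13 per promoter of all protein-coding genes. Of 24 Hox promoters (22 genes), 11 were CpG-rich (45.833%, at an observed-over-expected CpG ratio of at least 0.6 and a GC content of at least 50%), against 9600 of 21263 promoters of all protein-coding genes (45.149%). Among all 8452 genes with a CpG-rich promoter, 8080 had that TSS in a merged peak (95.599%), and among 10154 with a CpG-poor one 3691 did (36.35%), where a gene with promoters of both kinds counts under both. Among the 11 Hox genes with a CpG-rich promoter 0 did, and 2 had a merged peak within 2 kb. These shares describe 1 merged set of regions and were not tested.

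**Figure D1:**
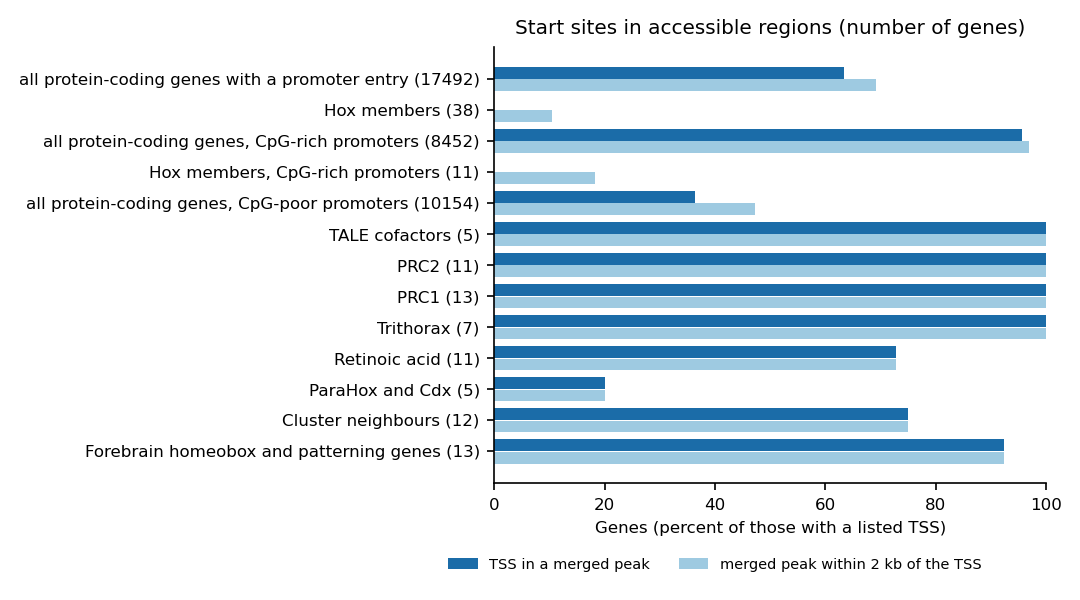
Bars give the percentage of genes whose TSS lies in a merged peak (dark) or within 2 kb of one (light), with the number of genes of each set in parentheses. The Hox members have no dark bar and a light bar at 10.526%, while all protein-coding genes reach 63.458% and 69.1% and the Polycomb, Trithorax and TALE genes reach 100%.

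Genes that work with or against the Hox clusters were accessible in the same nuclei. A TSS lay in a merged peak for 5 of 5 TALE genes with a promoter entry, 11 of 11 genes of PRC2, 13 of 13 of PRC1 and 7 of 7 Trithorax genes. The share was 8 of 11 for retinoic acid receptors and enzymes, and 12 of 13 (92.308%) for forebrain homeobox and patterning genes. Only 1 of 5 ParaHox and Cdx genes, evolutionary relatives of the Hox genes that act in gut and tail bud, had its TSS in a peak. Genes that flank the clusters stood at 9 of 12.

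Peak lists called in each library, before any merging, gave the same picture with weaker sites included. With the TSSs defined as above, 34 of the 38 members (89.474%) had no peak over the TSS in any library, against 5600 of all 17492 genes (32.015%). Hoxb8 counts among the 34 by its listed TSS, although the 5′ end of its span lies in a site called in 33 libraries. The 4 members with any call at the TSS were Hoxd1 in 7 libraries, Hoxc5 in 3, and Hoxa13 and Hoxb3 in 1 each. A library held between 1 and 10 peaks in the 4 cluster domains (median 4), of 82988 to 151322 peaks in all. The domains, taken as each cluster plus 2 kb on either side, held fewer peaks than the 500 kb on either side. Merged peaks per 100 kb numbered 1.95 in Hoxa against 4.2 in its flanks, 1.69 against 6.5 in Hoxb, 0.84 against 11.4 in Hoxc and 0.99 against 2.9 in Hoxd. Every library had a peak in the Hoxa domain, while 12 libraries had none in Hoxb, 18 none in Hoxc and 22 none in Hoxd.

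The calls fell on 66 separate sites in the 4 domains, of which 51 were called in 1 library only and 9 in 10 or more libraries. In Hoxa and Hoxb the sites called most often lay in the middle of the cluster. Sites over the 6 Hox peaks were called in 6 to 50 libraries, and 60 sites lay over no Hox peak. To be merged, a peak had to be called by 3 or more libraries of 1 group. Of these 60 sites, 7 were called in 4 or more libraries. In Hoxc, which had no Hox peak, calls of 11 libraries joined into a site of 2325 bp around the TSS of Hoxc5 (chr15:103012158-103014482), with 3 of these libraries having a peak over the TSS itself, and a site in the Hoxc6 gene (chr15:102999162-103000095) in 10. A site between Hoxc9 and Hoxc8 (chr15:102986644-102987930) was called in 13 libraries and carried the 1 merged peak of the Hoxc domain that the rule left just outside, at chr15:102987412-102987798 (387 bp). Its values ran from 0.764 to 1.65 CPM at TP1 and from 0.439 to 1.91 CPM at TP2. In Hoxd, a site in the Hoxd3 gene (chr2:74715737-74716233) was called in 10 libraries.

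**Figure D2:**
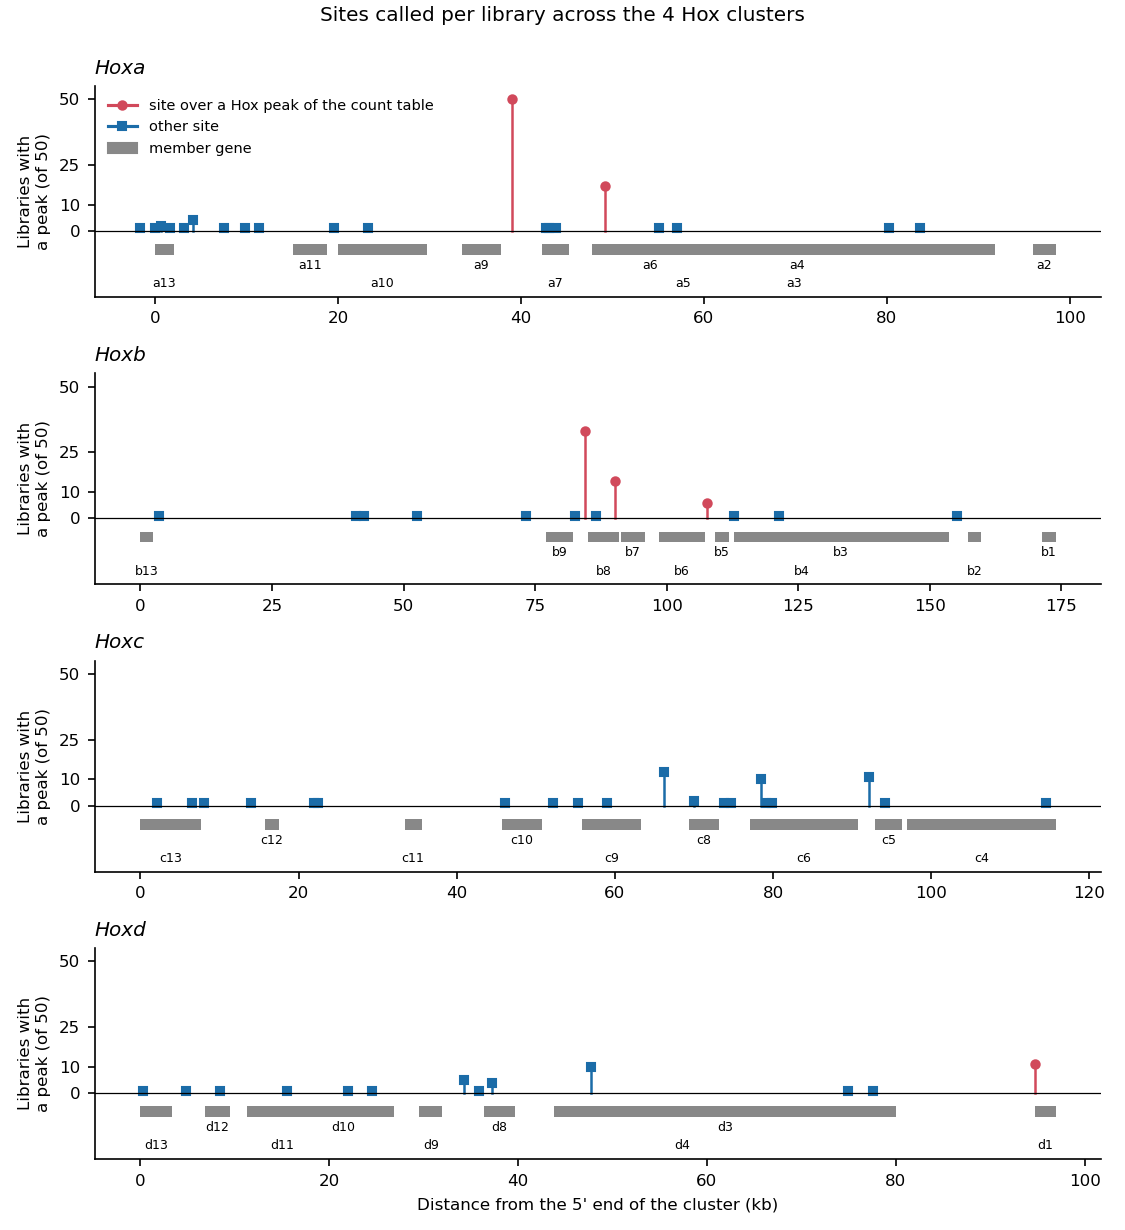
Each panel shows 1 cluster from its 5′ end (kb), with a stem for each site at which any library had a peak, its height the number of libraries of 50, red where the site lies over a Hox peak of the count table and blue elsewhere, above grey bars for the member genes. The red stem upstream of Hoxa7 reaches 50 libraries and the one upstream of Hoxb8 reaches 33, while 51 of the 66 stems stand at 1 library.

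The 6 Hox peaks differed in how often they were called. Each is named after the member with the nearest TSS. Coordinates are GRCm38. The Hoxa7 peak (chr6:52221099-52222580, 1482 bp) lies 2526 bp upstream of the TSS of Hoxa7, between Hoxa7 and Hoxa9, in no gene, and was called in 50 of 50 libraries with a fold enrichment of 2.72 to 5.82 over the local background. It met the rule through the span of Hoxa9 alone and lies more than 2 kb from that of Hoxa7. The Hoxb8 peak (chr11:96277824-96279645, 1822 bp) lies 2260 bp upstream of the listed TSS of Hoxb8 and reaches into the Hoxb8 span. It was called in 33 libraries, 22 at TP1 and 11 at TP2, with a fold enrichment of up to 7.3. The Hoxa3 peak (chr6:52211661-52212136, 476 bp) lies 931 bp downstream of the TSS in Hoxa3 and in the antisense gene Hoxaas3, and was called in 17 libraries, 12 of them at TP1. The counts are not split by strand, so the 2 genes cannot be told apart.

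The remaining peaks were weaker. The Hoxb7 peak (chr11:96284283-96284680, 398 bp) lies 924 bp upstream of Hoxb7 within the Hoxb8 span and was called in 14 libraries, 12 of them at TP1. The Hoxb5 peak (chr11:96301779-96302119, 341 bp) lies 1393 bp upstream of Hoxb5 in the antisense gene Hoxb5os and was called in 6 libraries, 3 in RF3 and 2 in RF2 at TP1 and 1 in RF2 at TP2. The Hoxd1 peak (chr2:74763037-74763331, 295 bp) lies 57 bp downstream of the TSS in Hoxd1 and was called in 9 libraries, 7 of them at TP1. The Hoxb5 and Hoxd1 peaks entered the count table through 1 group each, RF3 and RF5 at TP1, where 3 of 5 libraries had called them. The Hoxb7 peak entered through RF1 and RF2 at TP1, the Hoxa3 peak through RF1, RF2 and RF5 at TP1, and the Hoxb8 peak through 7 groups, of which 5 were the RFs at TP1 and 2 were RF1 and RF2 at TP2. A high level of such groups, a low level of the other groups against them, and a change of the RF differences from TP1 to TP2 are thus not independent of how these peaks were chosen. The Hoxa7 peak was found in all 10 groups.

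**Figure D3:**
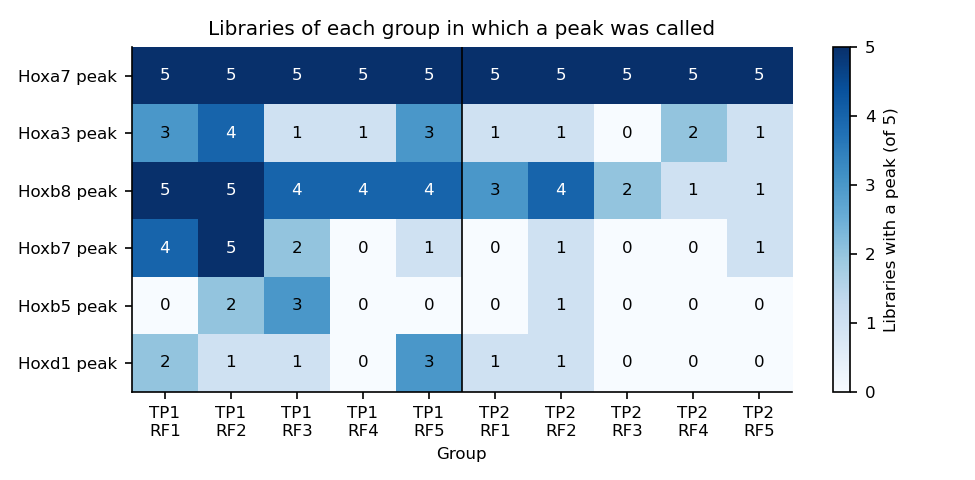
Each cell gives the number of libraries of 5 in which a peak overlapped the Hox peak, for the 5 RFs at TP1 (left) and TP2 (right). The Hoxa7 row stands at 5 in all 10 groups, and the Hoxb7, Hoxb5 and Hoxd1 rows hold at most 1 library per group at TP2.

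Accessibility, as CPM per kb of peak so that peaks of unequal width can be compared, was highest at the Hoxa7 peak, with a mean of 3.49 over the 50 libraries, followed by 2.46 at Hoxa3, 2.03 at Hoxb7, 1.86 at Hoxb8, 1.78 at Hoxb5 and 1.53 at Hoxd1. The median of the 144465 merged peaks was 2.71. Library ranges of neighbours in this order overlapped throughout, from 2.24 to 5.13 CPM per kb at Hoxa7 against 1.13 to 3.88 at Hoxa3. The narrow peaks rested on few reads, with a median of 36.5 counts per library at Hoxa3, 25.5 at Hoxb7, 16.5 at Hoxb5 and 13.5 at Hoxd1, against 109.5 at Hoxb8 and 185.5 at Hoxa7. Of all merged peaks, 37.9% had been found in 10 groups, as had the Hoxa7 peak, and 16.3% in 1 group, as had the Hoxb5 and Hoxd1 peaks.

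Next, differences between RFs were tested within each TP. At TP1, 4 of the 6 Hox peaks (Hoxa7, Hoxa3, Hoxb8 and Hoxb5) differed between RFs at a false discovery rate (FDR) below 0.01, against 59.1% of all 144458 peaks tested. At TP2, 0 of 6 did, against 30.8% of all 144449 peaks tested. In edgeR's quasi-likelihood test 2 of the 6 peaks had an unadjusted p under 0.05 at TP2, and DESeq2 called 1 of 6, Hoxa7 (adjusted p = 0.008258). Among all peaks the share called rose with the number of groups in which a peak had been found, from 36.1% for peaks of 1 group to 76.0% for peaks of 10 groups at TP1, and from 10.4% to 48.1% at TP2. The differentially accessible regions (DARs) of an RF were peaks that passed the FDR in the contrast with the other 4 RFs, averaged, and lay at or beyond a log2 fold change of 0.5 in either direction. At TP1, 2 of the 6 Hox peaks (Hoxa3 and Hoxb5) were a DAR of at least 1 RF, against 19.7% of all peaks. At TP2, 0 of 6 were, against 7.44%. The merged Hoxc peak just outside the rule also differed between RFs at TP1 (adjusted p = 0.004146, edgeR). It was a DAR higher in RF5 (log2 fold change 0.54 ± 0.14, adjusted p = 0.001426). At TP2 it was not called (0.5669). RF1 and RF5 at TP1 were the 2 groups through which it had entered the count table, so its call is not independent of that choice. With it, 5 of 7 peaks differed between RFs and 3 were a DAR at TP1. Of the 30 contrasts of a Hox peak and an RF at TP2, 7 had an unadjusted p under 0.05 in edgeR and 6 in DESeq2, which called 0 DARs. Without the 3 libraries of TP2 named above, 2 of 6 Hox peaks differed between RFs at TP2, Hoxa7 (adjusted p = 0.000394, edgeR) and Hoxb5 (adjusted p = 1.013e-05), and 1, Hoxb5, was a DAR. These calls are not independent of how the 3 libraries were picked.

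The Hoxa3 peak was lower in RF4 at TP1, in a contrast that includes the 3 groups through which the peak had entered the count table. The 5 RF4 libraries had 0.752, 0.820, 0.924, 0.877 and 0.748 CPM. The libraries of RF1 had 1.05, 1.85, 1.28, 1.72 and 1.75 CPM, and those of RF2 had 1.46, 1.16, 1.54, 1.69 and 1.41 CPM. RF3 gave 1.08, 1.67, 1.25, 0.659 and 1.53 CPM, and RF5 gave 1.60, 1.60, 1.09, 1.28 and 1.65 CPM. Of the 20 libraries of the other RFs, 19 lay above the highest library of RF4 and 1, in RF3, lay below its lowest. The log2 fold change of RF4 against the other RFs was -0.78 ± 0.16 (SE, adjusted p = 0.000132, edgeR), and 1.88% of all peaks were a DAR lower in RF4. At TP2 the RF4 libraries ranged from 0.538 to 1.28 CPM and overlapped those of every other RF, with a log2 fold change of -0.44 ± 0.21 (adjusted p = 0.1406). In RF4 at TP1 the neuronal promoter peaks summed to 157 to 171 CPM, against 198 to 242 CPM in the other RFs, and the astrocyte ones to 16.4 to 17.2 CPM, against 15.8 to 29.4 CPM. Their part in the low values of RF4 was not tested. Hoxa3 marks the hindbrain and neck region in the embryo.

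The Hoxb5 peak held the largest differences among the Hox peaks, at low counts. At TP1 the RF3 libraries had 0.937, 1.24, 1.62, 0.773 and 1.08 CPM (27 to 62 counts), and the RF4 libraries had 0.273, 0.348, 0.377, 0.424 and 0.272 CPM (12 to 20 counts). RF2 gave 0.667, 0.747, 1.08, 0.580 and 1.18 CPM, while RF1 ran from 0.407 to 0.796 and RF5 from 0.355 to 0.634 CPM. The 2 highest libraries of all 25 were of RF3, and 18 of the 20 other libraries lay above the highest of RF4. The log2 fold change was 1.01 ± 0.17 for RF3 (adjusted p = 9.141e-06, edgeR) and -1.17 ± 0.21 for RF4 (adjusted p = 1.258e-05). Of all peaks, 1.23% were a DAR higher in RF3. RF3 was the group through which the peak had entered the count table.

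At TP2 the order of the RFs at the Hoxb5 peak was another. RF5 was lowest, with 0.122, 0.379, 0.147, 0.136 and 0.421 CPM, which were 4 to 14 counts. RF3 had 0.138, 0.386, 0.529, 0.439 and 0.588 CPM and RF4 had 0.645, 0.271, 0.479, 0.538 and 0.527 CPM, so both lay inside the range of 0.122 to 1.23 CPM of the other libraries. The log2 fold change of RF5 was -1.16 ± 0.34, which did not pass the threshold (adjusted p = 0.01741). Without the 3 libraries, picked for their nearness to another RF, it was -1.39 ± 0.30 (adjusted p = 5.823e-05, edgeR). RF1, which had lost 2 of the 3, was then a DAR too, at 1.03 ± 0.31 (adjusted p = 0.004104). Over the peaks 0.2 to 1.5 Mb away, the median log2 fold change of RF5 at TP2 was -0.18. Those of the other RFs are given with the Hoxb8 peak below. The change of the RF differences between TPs was tested as the interaction of RF and TP, and 1 of the 6 Hox peaks, Hoxb5, was called (adjusted p = 0.0004726, edgeR), against 54.4% of all 144461 peaks. This test uses the RF3 libraries of TP1 through which alone the peak had entered the count table, so it is not independent of that choice. It also took the libraries of TP1 and TP2 as independent, although their mice were littermates. The call was lost (adjusted p = 0.03462) without the libraries numbered 1 and also (0.03269) when the mean deviation of each library over peaks 0.2 to 1.5 Mb away was removed. Without the 3 libraries of TP2, a choice made from these data, it was kept (adjusted p = 3.3e-06, edgeR). Hoxb5 acts in trunk patterning and in enteric neuron development.

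Some promoter peaks of glial markers differed in the same RFs as the Hoxb5 peak, and others did not. At TP1, Gfap, an astrocyte filament gene, was higher in RF3 by a log2 fold change of 0.92 ± 0.08 (adjusted p = 3.565e-14), Olig2, of the oligodendrocyte lineage, was higher in RF3 by 0.71 ± 0.11 (adjusted p = 2.367e-06), and Aldh1l1, an astrocyte enzyme gene, was lower in RF4 by -1.024 ± 0.11 (adjusted p = 9.439e-11). At TP2, Gfap was lower in RF5 by -0.86 ± 0.14 (adjusted p = 5.826e-05, edgeR), Aldh1l1 by -0.825 ± 0.20 (adjusted p = 0.003032) and Olig2 by -0.99 ± 0.19 (adjusted p = 0.0004219). Of the 4 astrocyte promoter peaks, 4 were a DAR of at least 1 RF at TP1 and 2 at TP2, in either direction. Summed over 4 promoter peaks, astrocyte genes gave 24.6 to 27 CPM in RF3 and 16.4 to 17.2 CPM in RF4 at TP1, but also 21.8 to 29.4 CPM in RF1 and 15.8 to 17.2 CPM in RF5. The 3 promoter peaks of microglia genes held 0 DARs at both TPs and summed to 24.2 to 26.7 CPM in RF3 and 21.4 to 26.5 CPM in RF4 at TP1. The 1 promoter peak of the oligodendrocyte lineage list (Olig2) gave 2.64 to 4.18 CPM in RF3 and 1.54 to 2.01 CPM in RF4 at TP1. The neuronal list was low in RF4 at TP1, as given above. At TP2 the Olig2 peak gave 0.356 to 1.58 CPM in RF5, against 0.882 to 3.42 CPM in the other RFs. The astrocyte sum gave 19 to 22 CPM in RF5 and 18.4 to 19.2 CPM in RF4, and neuronal genes gave 182 to 190 CPM in RF5. Their part in the result at the Hoxb5 peak was not tested. In bulk libraries, fewer nuclei of a type and less accessible chromatin per nucleus cannot be told apart.

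The Hoxb8 peak was low in RF1 at TP1. Its libraries had 2.05, 2.95, 3.28, 3.44 and 2.06 CPM, and 13 of the 20 other libraries lay above the highest of them. The log2 fold change was -0.43 ± 0.10 (adjusted p = 0.000366, edgeR), which passed the FDR but was below the fold change of a DAR. The difference between RFs (adjusted p = 0.005512) was lost with libraries within noise summed (0.01036), with a loess offset (0.01024) and without 1 of 5 libraries (RF1 library 1, 2 or 5, or RF5 library 2 or 5, at 0.01071 to 0.05726). A peak was nonetheless called in 5 of 5 RF1 libraries there, as in RF2, and in 4 of 5 in each other RF. Peaks around Hoxb moved the same way in RF1. Over 277 peaks 0.2 to 1.5 Mb away the median log2 fold change of RF1 was -0.33 at TP1, with 59 of them a DAR lower in RF1, and it was 0.20 in RF3. With this regional deviation removed, the log2 fold change of the Hoxb8 peak in RF1 was -0.10 ± 0.09 and the difference between RFs was no longer called (adjusted p = 0.5705), while that of Hoxb7 became called (0.004638). At TP2 the medians around Hoxb were 0.18 in RF1, 0.06 in RF2, -0.30 in RF3, 0.21 in RF4 and -0.18 in RF5. Of these peaks, 16 were a DAR lower in RF3 and 5 were one lower in RF5. Around Hoxa the same medians, over all RFs and both TPs, ran from -0.09 to 0.06, and around Hoxd from -0.06 to 0.09. At TP2 the Hoxb8 peak ran from 2.24 to 5.45 CPM in RF1, which spanned the 2.30 to 4.65 CPM of the other RFs, with a log2 fold change of -0.09 ± 0.14. Hoxb8 is known in the mouse for a role in microglia and grooming.

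The Hoxa7 peak, the most accessible, had its lowest mean in RF4 at both TPs, with 4.56, 4.67, 4.40, 4.81 and 4.60 CPM at TP1, when 19 of the 20 other libraries lay above its highest library, and 3.91, 4.18, 3.31, 4.26 and 4.19 CPM at TP2, when 17 did. Its log2 fold change was -0.30 ± 0.08 at TP1 (adjusted p = 0.003551, edgeR), smaller than a DAR requires, while the difference between RFs at TP1 (adjusted p = 0.003454) was lost with libraries within noise summed (0.01914), and without RF4 library 3 (0.0156) or 5 (0.01279). The change was -0.32 ± 0.11 at TP2 (adjusted p = 0.0239). Among the other RFs the libraries ran from 4.45 to 7.05 CPM at TP1 and from 3.66 to 7.60 CPM at TP2. The marker sums of RF4 at TP1 given for Hoxa3 stand beside these values too, and their part was not tested. Only the neuronal sum lay below all other RFs, while the astrocyte sum lay within their range. Hoxa7 belongs to the trunk genes of the cluster.

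Hoxb7 and Hoxd1 were not called. At the Hoxb7 peak the libraries ran from 0.66 to 1.36 CPM at TP1 and from 0.289 to 1.37 CPM at TP2, with overlap between all RFs (adjusted p = 0.2855 and 0.4976). At the Hoxd1 peak the RF5 libraries had 0.327, 0.760, 0.483, 0.804 and 1.11 CPM at TP1, against 0.230 to 0.770 CPM in the other RFs. Of the 25 libraries, 2 of RF5 were the highest. The difference between RFs at TP1 was not called (adjusted p = 0.05314, edgeR). It stood at 0.1831 without RF5 library 2 and at 0.2754 without RF5 library 5. The log2 fold change of RF5 was 0.66 ± 0.21 and missed the threshold (adjusted p = 0.01095). It passed where any 1 of 6 libraries of TP1 was left out (0.00445 to 0.009374). Over all 25 fits without 1 library, the fold change ran from 0.51 to 0.82. RF5 was again the group that had brought the peak into the table. At TP2 the RF5 libraries lay between 0.244 and 0.548 CPM, inside the range of 0.116 to 0.974 CPM of the others.

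**Figure D4:**
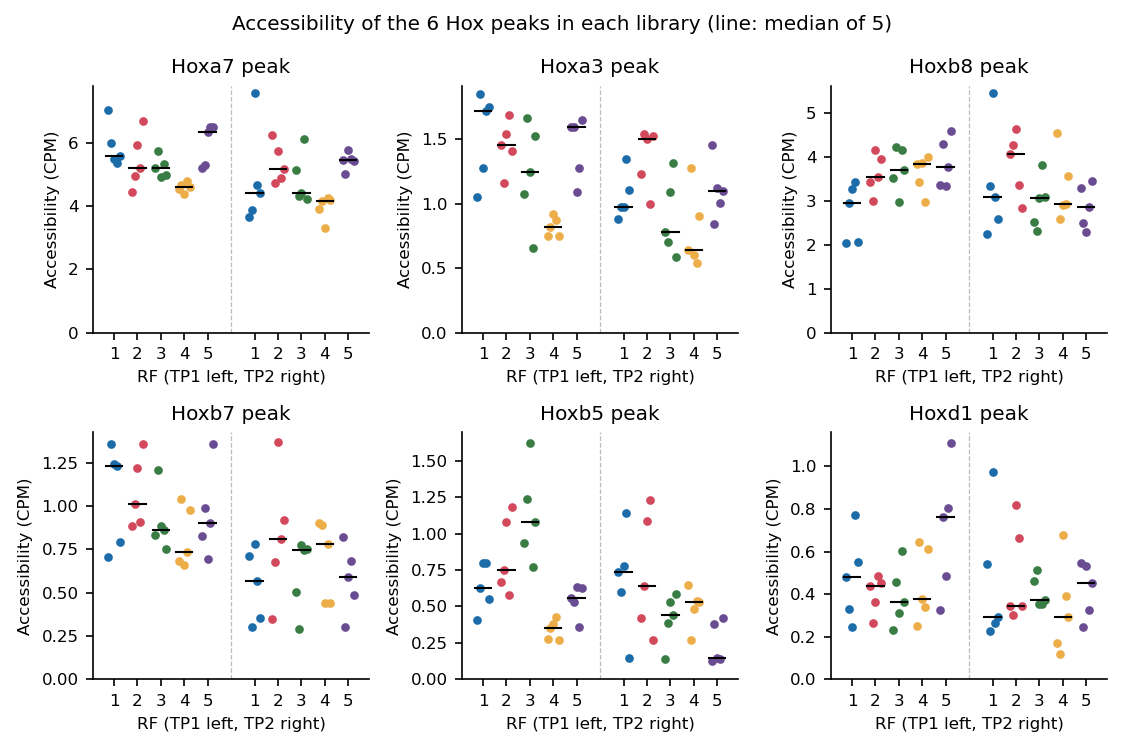
Points are the CPM of single libraries at each Hox peak, for RF1 to RF5 at TP1 (left of the dashed line) and TP2 (right), and lines are medians of 5 libraries. RF4 lies low at the Hoxa3, Hoxb5 and Hoxa7 peaks at TP1, RF3 lies high at Hoxb5 at TP1, and a single RF1 library stands at 7.60 CPM at Hoxa7 at TP2.

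**Figure D5:**
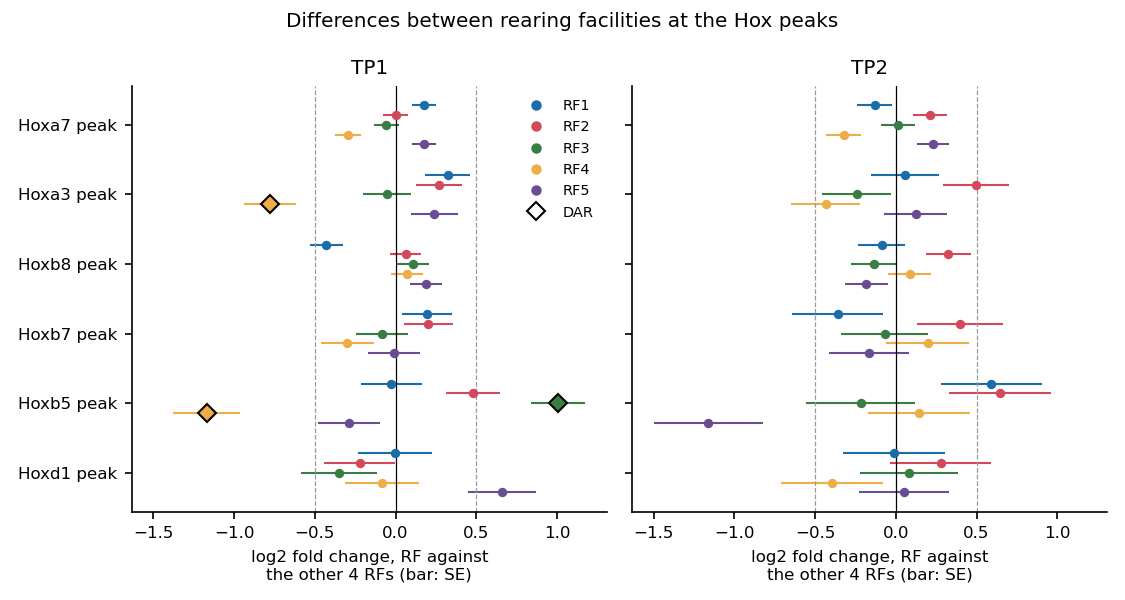
Points are log2 fold changes of 1 RF against the other 4 RFs with bars of 1 SE, at TP1 (left) and TP2 (right), diamonds are DARs and dashed lines mark 0.5 in either direction. The 3 diamonds, RF4 at Hoxa3 (-0.78) and RF4 and RF3 at Hoxb5 (-1.17 and 1.01), stand at TP1, and TP2 has none.

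Summed over the peaks of a cluster, levels overlapped between the TPs. Hoxa gave 5.31 to 8.17 CPM at TP1 (median 6.81) and 3.91 to 8.57 CPM at TP2 (median 5.89). Hoxb gave 3.16 to 6.67 CPM (median 5.04) and 2.99 to 7.10 CPM (median 4.26). Hoxd, with its single peak, gave 0.230 to 1.11 CPM (median 0.453) and 0.116 to 0.974 CPM (median 0.353).

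Finally, promoter peaks of the genes that act on or with the Hox clusters were read from the same fits. Their values are not shown by library, and many of the differences named are of RF1 at TP1, the most uneven group. Of all 12688 promoter peaks of protein-coding genes, 87.0% differed between RFs at TP1 and 65.6% at TP2, while 18.8% and 4.93% were a DAR of at least 1 RF. Of the 13 promoter peaks of PRC2 genes, which write the repressive mark on histone H3, 11 differed between RFs at TP1 and 9 at TP2, with 3 DARs at TP1 and 0 at TP2. Aebp2, a PRC2 accessory subunit, was higher in RF1 (log2 fold change 0.58 ± 0.05, adjusted p = 6.633e-16, edgeR, for this and the genes below) and Jarid2, which helps recruit PRC2, was lower in RF4 (-0.56 ± 0.04, adjusted p = 6.485e-15). Of the 17 promoter peaks of PRC1 genes, 17 differed at TP1 and 14 at TP2, with 5 and 1 DARs. Phc1 (0.72 ± 0.05, adjusted p = 1.501e-19) and Pcgf5 (0.66 ± 0.05, adjusted p = 8.747e-18), both PRC1 subunits, were higher in RF1 at TP1, and Ring1, a catalytic subunit, was lower in RF3 at TP2 (-0.53 ± 0.06, adjusted p = 4.1e-11).

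All 7 promoter peaks of Trithorax genes differed between RFs at both TPs, with 2 DARs at TP1 and 0 at TP2. Kdm6a, a demethylase that removes the mark of PRC2, was higher in RF1 (0.79 ± 0.05, adjusted p = 1.013e-20), with a mean of 56.7 CPM against 33.3, and Kmt2c, a histone methyltransferase, was lower in RF4 (-0.58 ± 0.05, adjusted p = 7.772e-15). Of the 5 TALE promoter peaks, 5 differed at TP1 and 4 at TP2, with 3 DARs at TP1 and 0 at TP2. The Hox cofactors Meis1 (0.68 ± 0.06, adjusted p = 1.177e-15) and Meis2 (0.68 ± 0.05, adjusted p = 1.636e-18) were higher in RF1. Meis1 gave a mean of 15.1 CPM in RF1 against 9.48 CPM in the other RFs.

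Of the 14 promoter peaks of the retinoic acid list, 11 differed at TP1 and 9 at TP2, with 1 DAR at each TP. The receptor gene Rxra was lower in RF1 at TP1 (-0.61 ± 0.09, adjusted p = 1.943e-08) and the receptor gene Rxrb was lower in RF3 at TP2 (-0.54 ± 0.05, adjusted p = 9.315e-13). The single ParaHox and Cdx promoter peak differed at TP1 but not at TP2 by this test and was no DAR. Of the 10 promoter peaks of genes that flank the clusters, 8 differed at TP1 and 7 at TP2, with 0 and 1 DARs, the latter at Snx11 near Hoxb, lower in RF3 (-0.51 ± 0.14, adjusted p = 0.003936). Of the 16 promoter peaks of forebrain homeobox and patterning genes, 12 differed at TP1 and 11 at TP2, with 7 DARs at TP1 and 0 at TP2. Pou3f2, an upper-layer neuron factor, was lower in RF4 (-0.80 ± 0.06, adjusted p = 5.808e-16) and its relative Pou3f3 was higher in RF1 (0.72 ± 0.04, adjusted p = 3.865e-20), with a mean of 69.8 CPM against 42.9.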

How the data were processed

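ATAC-seq on NeuN+ nuclei gave 50 libraries, grouped by the RF, TP and replicate number of their labels. The authors trimmed reads, aligned them with Bowtie2 to GRCm38, marked duplicates with Picard 1.140 and called broad peaks per library with MACS2 2.1.4 (q 0.05, broad cut-off 0.1). Calls shared by at least 3 of 5 libraries of a group were merged over groups. The deposited counts per merged peak are raw. A deposited normalized table, which holds the same numbers, and the authors' DESeq2 results were not used. The deposited list of merged peaks gives the number of groups in which each was found. The deposited peak lists hold a MACS2 score, the fold enrichment (a ratio) and −log10 p- and q-values, of which only fold and q were read.

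Robust quasi-likelihood F-tests of edgeR 4.0.16 (R 4.3.3), after TMM scaling and filterByExpr, were run on the counts with RF and replicate number as terms, for each TP apart, and with RF, TP, their interaction and replicate number within TP for both. No term paired the littermates of TP1 and TP2. Benjamini-Hochberg adjustment ran over all peaks tested. SE is the absolute log2 fold change over the square root of F. CPM are counts per 1000000 of TMM-scaled library totals. Each sorting batch held 1 sample of each RF, and the replicate number, the only label that divides libraries so, stood for it. Deviations from group means had a mean correlation of 0.0582 (TP1) and 0.00145 (TP2) between same-numbered libraries, with 13 and 1 of the 50 pairs above 0.1. Between libraries of unlike number it was -0.0145 and -0.000391, with 19 and 0 of 200 pairs above 0.1. Libraries were within sampling noise where their difference over 16647 peaks reached at most 1.02 times 2 times the binomial variance. The factor of 2 assumes 2 counts per read pair. The p-values measure the spread between libraries. Gene spans and TSSs came from RefSeq (GRCm38.p6). Values were given for the strongest peak per cluster, the extreme DARs per TP, the called interaction and, per list and TP, the 2 largest promoter DARs. Members and lists were chosen with earlier results of these data known. Fits were tested on simulated counts. Other software was pandas 2.3.3, numpy 2.4.6, matplotlib 3.10.9, scipy 1.17.1, Python 3.11.15, DESeq2 1.42.0 and limma 3.58.1. Alternatives were another scaling, DESeq2, no filter, no replicate block, loess and regional offsets, summed or left-out libraries and other windows.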

Additional observations from a re-analysis of the deposited data

Results flagged for a closer look

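In the Hoxa7 peak the RF1 library numbered 3 at TP2 stood apart from its group, at 7.6 CPM against 3.66 to 4.68 CPM in the other 4 libraries, a gap of 0.743 of the whole range (critical value 0.71 for 5 libraries). It rests on 39 counts in the shallowest library of the series. In all, 60 groups of 5 libraries were examined in this way, and chance alone singles out about 5% of them. The RF differences at the Hoxb5 peak changed between TP1 and TP2 by the test of the interaction (adjusted p = 0.000473, edgeR), with RF3 high and RF4 low at TP1 and RF5 lowest at TP2. The peak was in the count table only through RF3 at TP1, so this test is not independent of how the peak was chosen. It also took the libraries of TP1 and TP2 as independent, although their mice were littermates. The call was lost without the libraries numbered 1 (0.03462) and with the regional offset (0.03269).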

How the results depend on the processing

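Counts of Hox peaks that changed by more than 1.5 times were as follows. Peaks that differed between RFs at TP1 were 2 (4 in the report) with libraries within noise summed (Hoxa7, adjusted p = 0.01914, and Hoxb8, 0.01036, were lost) and 2 of 4 peaks tested with no window around the members. At TP2 they were 1 with DESeq2 and 2 without RF1 libraries 3 and 5 and RF2 library 5, which stood nearest to libraries of another RF in earlier results (Hoxa7, Hoxb5). That choice itself favours differences between RFs. DARs at TP1 were 4 with the regional offset (Hoxb7 in RF1, 0.52 ± 0.15, and Hoxd1 in RF5, 0.66 ± 0.20, joined) and 1 with no window. DARs at TP2 were 1 without those 3 libraries (Hoxb5, RF5 at -1.39 ± 0.30, adjusted p = 5.823e-05, and RF1 at 1.03 ± 0.31, adjusted p = 0.004104). The interaction was called in 0 peaks with the regional offset and in 0 with no window, since Hoxb5 lies outside the member spans. With a loess offset Hoxd1 in RF5 was a DAR (0.87 ± 0.21, adjusted p = 0.000741). The number of peaks that differed between RFs at TP1 stayed 4 there, but Hoxb8 was lost (0.01024) and Hoxd1 joined (0.003892).

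Leaving out 1 library at a time gave 3 to 4 peaks differing between RFs at TP1, 0 to 2 at TP2, 2 to 4 DAR peaks at TP1, 0 to 1 at TP2, and leaving out 1 replicate number gave 0 to 1 interaction (0 without number 1). The DAR contrasts of TP1 in the report, 3, stayed called throughout (3 to 3). The merged peaks were the same in all these fits. Without any 1 of the 3 RF3 libraries of TP1 that called it, the Hoxb5 peak would not have been merged. For that peak these fits thus do not repeat the choice of peaks. At TP1 Hoxa7 was lost without RF4 library 3 (adjusted p = 0.0156) or 5 (0.01279), and Hoxb8 without RF1 library 1 (0.05345), 2 (0.01076) or 5 (0.05726) or RF5 library 2 (0.01187) or 5 (0.01071). At TP2 Hoxa7 was called without RF1 library 3 (0.002601) or 5 (0.00836), and Hoxb5 without RF1 library 5 (0.000783), RF2 library 5 (0.0074) or RF5 library 5 (0.003346), each of which made RF5 a DAR there. DARs at TP1 reached 4 without RF1 library 4, with Hoxb8 in RF1 (-0.52 ± 0.11) and Hoxd1 in RF5 (0.70 ± 0.21). Hoxb8 in RF1 was also a DAR without RF1 library 3 (-0.51 ± 0.11), and Hoxd1 in RF5 also without RF1 library 1, RF2 library 1, RF3 library 4, RF4 library 2 or RF5 library 1 (0.69 to 0.82). The labels do not say whether the replicate numbers pair libraries. At TP1, 13 of 50 same-numbered pairs correlated above 0.1 (mean 0.0582), against 19 of 200 pairs of unlike number (mean -0.0145). Same-numbered libraries thus deviated together more often at TP1. At TP2 it was 1 of 50 against 0 of 200. The library that correlated best had the same number for 9 of 25 libraries at TP1 and 3 of 25 at TP2. Without the replicate block the Hoxb5 interaction had an adjusted p of 0.001026, and the counts of calls stayed 4 and 0 for RF, 2 and 0 for DARs and 1 for the interaction. Ranked by CPM not divided by width, the Hoxa3 peak moved from above 37.5% of all peaks to above 9.88%, and the Hoxb8 peak from 18.7% to 44.4%. The 129 calls over Hox peaks fell to 61 at a −log10 q of at least 5 and to 39 at an overlap of at least 50% of the peak. The cause of these changes was not tested. An offset by GC content of the peaks was not run. Counts under 20 per library, common at Hoxb5 and Hoxd1, limit what could be detected at TP2.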
